A study of Stylosanthes guianensis with 6 samples.

Results

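The 10 unigenes described here are the stylo root transcripts that the study's table of differentially expressed transporters annotates as PHT-type inorganic phosphate (Pi) transporters. A unigene is a transcript cluster of an assembly made without a reference genome, and it carries only an identifier of that assembly. The members were taken by description from the Pi transporter section of that table, which holds 18 of its 279 unigenes, out of 173014 unigenes in the deposited files. By description, 4 members are inorganic phosphate transporter 1-4-like (matched to chickpea), 2 are 1-7-like (matched to soybean), and there is 1 each for transporter 1-9 (chickpea), phosphate transporter 1 (PT1, matched to stylo itself), phosphate transporter 3 (PT3, soybean) and transporter 2-1 (matched to Brassica rapa). The table lists unigenes selected on their fold change and adjusted p between the same LP and CK libraries, so the LP and CK values given below for the members describe them and test nothing.

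Stylosanthes guianensis (stylo) is a tropical forage legume of acid, P-poor soils. Seedlings of cultivar RY2 were germinated for 3 d, grown in nutrient solution for 14 d and then kept for 21 d in solution without Pi (LP) or with 250 μM KH2PO4 (CK, the control by its title), and RNA was sequenced from roots in 3 libraries per group. These doses follow the study's definition of LP, whereas in the labels' phosphorus field the LP titles carry 250 μM and the CK titles 0 μM, and groups are named here by their titles. No transgene or mutation is named for these plants, the files hold RY2 only, and the study's methods count 1 hydroponic box of 3 seedlings as a replicate.

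PHT1 proteins are proton-coupled carriers of the plasma membrane that take up Pi from the soil solution into root cells and move it between tissues. In Arabidopsis and rice, several PHT1 genes are transcribed more strongly when Pi is short, through the MYB factor PHR1, which SPX-domain proteins hold inactive while Pi is plentiful. PHT2;1 is a carrier of the chloroplast envelope in Arabidopsis and is best known from green tissue.

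Libraries held 15586353 to 21784888 counts, and the 3 LP libraries were the deeper ones, so levels below are given as FPKM, fragments scaled for transcript length and library size. In bulk RNA, fewer cells of a type and less RNA per cell cannot be told apart. The label's tissue field names root, but its extraction text speaks of leaves. By the descriptions in the study's tables, which list unigenes that differ between the groups, 6 unigenes matched the terms searched for root, 4 high-affinity nitrate transporters and 2 ROOT HAIR DEFECTIVE 3 homologues, and all had lower levels in LP. These terms do not cover the other root genes of those tables, and the study reports some root growth genes as raised by P deficiency. Nothing is read from the direction of these matches, and whether they mark root tissue was not tested. The highest level was that of a high-affinity nitrate transporter 3.1-like unigene (Cluster-8255.68504), at 111 to 180 FPKM in LP and 1638 to 1952 FPKM in CK. Of 2 unigenes that matched leaf terms, the photosystem I subunit III unigene Cluster-8255.71546 had 33.2 to 45.2 FPKM in LP and 0 in every CK library, and a chlorophyll a/b-binding protein matched to the alga Coccomyxa had 14 to 24 reads in LP and at most 1 in CK. The part of these in the members' values was not tested. Both leaf matches came from a table ordered by fold change. Only its part with unigenes read in one group alone and with the larger increases was read. Most leaf unigenes with smaller increases or with decreases would therefore not have been found.

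The summed level of the PHT-type unigenes was higher in LP roots than in CK roots, and different members made up most of it. The 10 members together had 430, 361 and 493 FPKM in the LP libraries, against 123, 122 and 120 FPKM in the CK libraries. All LP libraries were above all CK libraries, and the mean was 428 ± 66.1 FPKM in LP and 122 ± 1.36 FPKM in CK (SD, n = 3 each), a ratio of 3.52. The spread among LP libraries was wider than among CK libraries. The members held 0.0788% to 0.108% of all counts in LP libraries and 0.0256% to 0.0263% in CK libraries.

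The 1-4-like and 1-7-like classes held most of the family in LP, and PT3 and the 1-7-like class held most of it in CK. The 1-4-like unigenes made up 44.8 ± 4.42% of the summed FPKM in LP and 5.65 ± 0.75% in CK, and the 1-7-like unigenes 48.5 ± 5.34% in LP and 27.2 ± 0.69% in CK (SD, n = 3 each). PT3 made up 5.16 ± 0.98% in LP and 50.5 ± 1.34% in CK, and PT1 1.45 ± 0.14% in LP and 15.3 ± 1.69% in CK (SD, n = 3 each). For each of these classes, no LP library had a share within the range of the CK libraries.

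**Figure D1:**
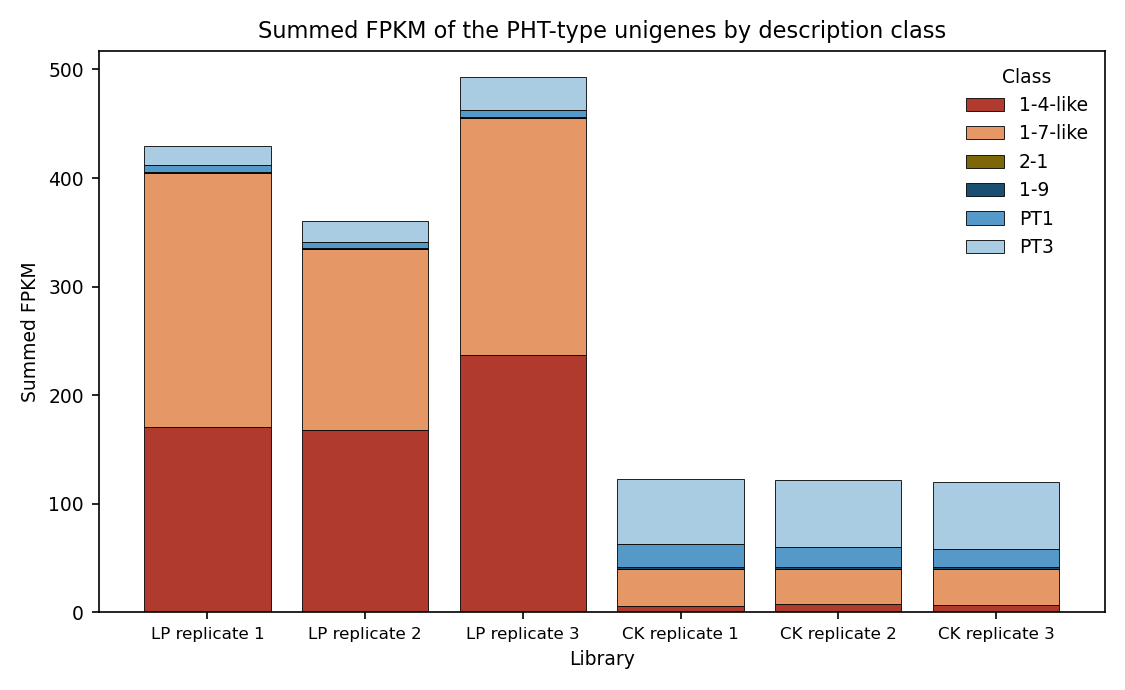
Summed FPKM (vertical axis) of the PHT-type unigenes in each of the 3 LP and 3 CK libraries (horizontal axis), with each bar divided by description class. LP bars reach 361 to 493 FPKM and consist mostly of the 1-4-like and 1-7-like classes, while CK bars reach 120 to 123 FPKM and consist mostly of PT3 and 1-7-like, and the 2-1 and 1-9 classes are too thin to see.

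Low counts kept 1 member out of the test, and of the other 9 members 6 were called higher and 3 lower in LP, where a call needed a log2 fold change of 1 or more in size and an edgeR adjusted p under 0.05. Of all 62040 unigenes tested, 13.2% were called, 6.09% higher and 7.10% lower, and nothing is read from the members' count because they were chosen by the same contrast. All 10 members had LP and CK libraries that did not overlap in normalized counts, 7 higher and 3 lower in LP, against 42.4% of all unigenes tested (20.6% higher and 21.8% lower). The median log2 fold change of the 9 tested members was 2.69, also with the 2 members that had no CK reads set at their lower bounds, beside 0.03 over all unigenes tested.

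**Figure D2:**
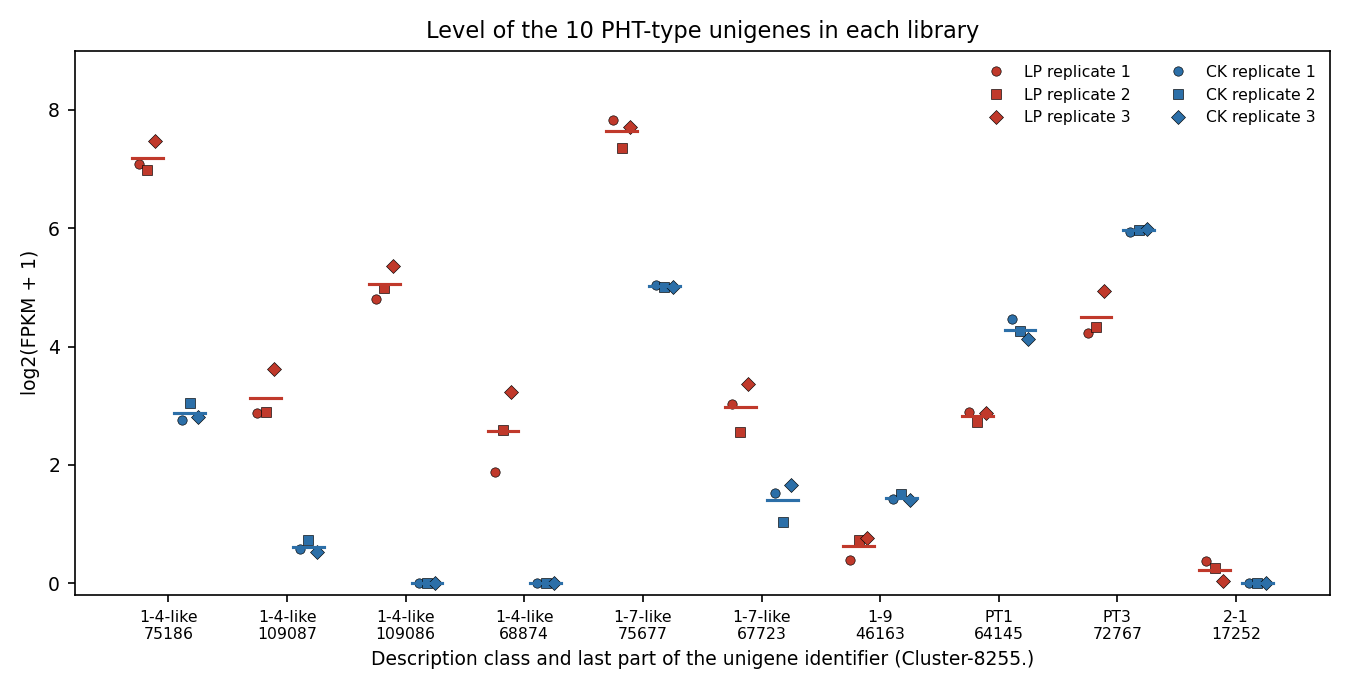
Level of each member, as log2(FPKM + 1), in the 3 LP libraries (red, left of each pair) and the 3 CK libraries (blue, right), with replicates as symbols and horizontal lines at group means. The 6 unigenes of the 1-4-like and 1-7-like classes and the 2-1 unigene lie higher in LP, and the 1-9, PT1 and PT3 unigenes lie lower, with no overlap of libraries in any pair.

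The 1-4-like class covers the members with the largest ratios. In Arabidopsis, PHT1;4 is one of the main carriers of Pi uptake by roots. The unigenes of this class together had 171, 168 and 237 FPKM in LP, against 6.24, 7.94 and 6.44 FPKM in CK, a ratio of means of 27.9. When their reads were added before fitting, the log2 fold change was 4.83 (SE 0.21).

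The most abundant 1-4-like unigene was Cluster-8255.75186, at 135, 125 and 177 FPKM in the LP libraries and 5.75, 7.28 and 6.0 FPKM in the CK libraries. The lowest LP library lay far above the highest CK library, and LP replicate 3 was the highest. Its log2 fold change was 4.54 (SE 0.20), and it ranged from 4.36 to 4.66 with 1 library left out. Its level lay at a median rank of 970 among the 62040 tested unigenes in LP and 20165 in CK, where rank 1 is the highest FPKM. The study designed quantitative PCR primers for this member, which are shown because they are the only member sequences in the sources used here, with no part marked by capitals.
Cluster-8255.75186 forward primer: gccggaggaagccacccaatg
Cluster-8255.75186 reverse primer: agcggagcaagcaaaggaggatga
The forward primer has 21 bases and a G+C content of 66.7%, and the reverse primer has 24 bases and 54.2%. Whether they also match the other 1-4-like unigenes was not tested, since the unigene sequences were not used here.

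Cluster-8255.109086 had 26.8, 30.8 and 40.1 FPKM in the LP libraries, from 1396, 1516 and 2017 reads, and 0 reads in every CK library. Against a floor of 3 reads over the CK group it was at least 1304-fold higher in LP, a bound that covers counting error only. With 1 library left out, the log2 of this bound ranged from 9.70 (without CK replicate 1) to 10.47, beside 10.35 with all libraries. This unigene was the third most abundant member in LP and was not detected in CK at this depth.

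Cluster-8255.68874 likewise had no read in CK. It had 2.66, 5.04 and 8.40 FPKM in the LP libraries, from 161, 290 and 493 reads, and was at least 250-fold higher in LP by the same floor. The log2 of this bound was 7.96, and with 1 library left out it ranged from 7.32 (without CK replicate 1) to 8.30, with 7.39 and 7.43 without CK replicates 3 and 2. The LP libraries were spread widely, with replicate 3 the highest and a coefficient of variation of 53.7%, against 18.9% for Cluster-8255.75186.

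Cluster-8255.109087 was detected in every library, at 6.37, 6.43 and 11.2 FPKM in LP and 0.49, 0.66 and 0.44 FPKM in CK. LP replicate 3 was again the highest, and the groups did not overlap. The log2 fold change was 3.94 (SE 0.33).

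The makeup of the 1-4-like class also differed between the groups. Of 28675 reads of the class in LP, 74.4% (95% Wilson interval 73.9% to 74.9%) fell on Cluster-8255.75186, 17.2% (16.8% to 17.6%) on Cluster-8255.109086, 5.08% (4.84% to 5.34%) on Cluster-8255.109087 and 3.29% (3.09% to 3.50%) on Cluster-8255.68874. Of 800 reads of the class in CK, 90.6% (88.4% to 92.5%) fell on Cluster-8255.75186 and 9.38% (7.54% to 11.6%) on Cluster-8255.109087. None fell on Cluster-8255.109086 or Cluster-8255.68874, each with a Wilson upper limit of 0.478%. In FPKM, Cluster-8255.109086 made up 15.7%, 18.4% and 16.9% of the class in the LP libraries, and Cluster-8255.75186 made up 74.8% to 79.0% in LP and 91.7% to 93.2% in CK. These intervals cover counting error only, and the reads were pooled over the 3 libraries of a group. RSEM divides reads that fit several unigenes among them, and all 51 member values above 0 were not whole numbers, so the split between unigenes of one description is less certain than their sum.

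The 1-7-like class held the most abundant member. The description places it in the PHT1 family, whose proteins carry Pi across the plasma membrane. Cluster-8255.75677 had 227, 163 and 210 FPKM in the LP libraries, against 31.7, 31.3 and 31.2 FPKM in the CK libraries. The CK libraries were nearly equal, with a coefficient of variation of 0.91%, and those of LP varied by 16.7%. The log2 fold change was 2.69 (SE 0.15), and it ranged from 2.60 to 2.83 with 1 library left out. Among all unigenes tested it lay at a median rank of 553 in LP and 5317 in CK.

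Cluster-8255.67723 was the less abundant 1-7-like unigene. It had 7.12, 4.86 and 9.32 FPKM in the LP libraries and 1.86, 1.04 and 2.17 FPKM in the CK libraries. Replicate 2 was the lowest library within each group, and the groups did not overlap. The log2 fold change was 2.09 (SE 0.35). It took 1.63 ± 0.27% of the family's FPKM in LP and 1.39 ± 0.49% in CK (SD, n = 3 each), so its share lay within the spread of libraries, in contrast to the other unigene of its class, at 46.8 ± 5.37% in LP and 25.8 ± 0.20% in CK.

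The members lower in LP were the PT3, PT1 and 1-9 unigenes, which together had 24.4, 25.4 and 36.9 FPKM in LP, against 82.8, 81.9 and 80.3 FPKM in CK. Set against the rest of the family, these 3 unigenes made up 6.74 ± 0.94% of the summed FPKM in LP and 67.1 ± 0.35% in CK (SD, n = 3 each). The remaining 7 members had a mean sum of 399 ± 60.6 FPKM in LP and 40.0 ± 0.25 FPKM in CK (SD, n = 3 each). In mean sums, the 7 members were 359 FPKM higher in LP, and the other 3 fell by 52.7 FPKM.

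PT3, Cluster-8255.72767, was the most abundant member in CK and the fourth in LP. It had 17.7, 19.2 and 29.8 FPKM in the LP libraries and 60.1, 61.9 and 62.1 FPKM in the CK libraries. LP replicate 3 lay nearest to CK but still below every CK library. The log2 fold change was -1.45 (SE 0.21), and it ranged from -1.73 to -1.29 with 1 library left out. The description phosphate transporter 3 does not by itself say to which PHT family the protein belongs.

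PT1, Cluster-8255.64145, is the member described from stylo itself. It had 6.42, 5.60 and 6.38 FPKM in the LP libraries and 21.0, 18.2 and 16.5 FPKM in the CK libraries. All LP libraries lay below all CK libraries, and the LP libraries were close together, with a coefficient of variation of 7.54%. The log2 fold change was -1.58 (SE 0.13), a level 3.03-fold lower in LP by mean FPKM.

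The 1-9 unigene, Cluster-8255.46163, was the ninth member by level in LP and the fifth in CK. In Arabidopsis, PHT1;9 is a root carrier with a part in moving Pi from root to shoot. It had 0.31, 0.66 and 0.69 FPKM in the LP libraries, from 23, 48 and 51 reads, against 1.69, 1.83 and 1.64 FPKM in the CK libraries, from 106, 100 and 94 reads. The log2 fold change was -1.62 (SE 0.34), and LP replicate 1 was the lowest library. With any 1 CK library left out it was no longer called (edgeR adjusted p = 0.0605 to 0.0670), whereas the other 8 tested members kept their calls.

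The 2-1 unigene, Cluster-8255.17252, had 25, 15 and 3 reads in the LP libraries and 0 in every CK library, that is 0.30, 0.19 and 0.03 FPKM in LP. It was at least 11.4-fold higher in LP by the floor of 3 reads, and was not tested because too few libraries reached the minimum count. The log2 of this bound was 3.51, and in the fits it entered with 1 library left out it ranged from 2.86 (without CK replicate 1) to 3.97. It was called only without LP replicate 3 (edgeR adjusted p = 0.0444). It also entered the fits without each CK replicate and without a filter on low counts, and was not called in these (edgeR adjusted p = 0.0593 to 0.104). It is described from Brassica rapa, outside the legumes, and 3 listed unigenes have a Brassica description in both of the study's protein and nucleotide columns. The other two, Cluster-31904.0 and Cluster-8255.114049, had 32, 9 and 12 reads and 12, 21 and 11 reads in the LP libraries and 0 reads after rounding in every CK library. All 3 were low in LP, and Cluster-8255.114049 had 0.03 FPKM in CK replicate 2 from a fraction of a read. Whether their reads come from stylo was not tested.

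**Figure D3:**
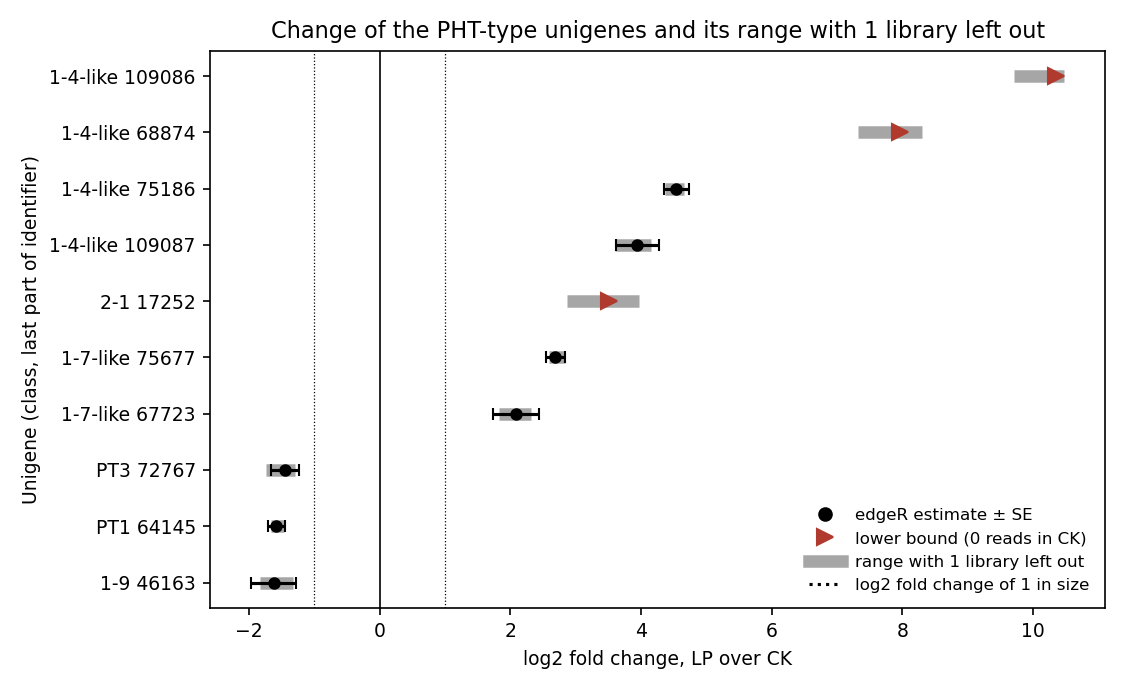
Log2 fold change of each member, LP over CK (horizontal axis), with edgeR estimates and SE in black, lower bounds for the 3 members without reads in CK as red arrowheads, and grey bars for the range with 1 library left out (for the 2-1 unigene, over the 4 fits it entered). The 7 members to the right of 0 range from 2.09 to bounds of at least 10.35, and the 3 to the left lie between -1.62 and -1.45.

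The order of the members by FPKM differed between the groups. In LP the 1-7-like unigene Cluster-8255.75677 came first, followed by the 1-4-like unigenes Cluster-8255.75186 and Cluster-8255.109086 and then PT3. Cluster-8255.75677 exceeded Cluster-8255.75186 within each LP library, although their ranges over libraries overlapped, and likewise Cluster-8255.109086 exceeded PT3 within each library with overlapping ranges. Next came Cluster-8255.109087, Cluster-8255.67723, PT1 and Cluster-8255.68874, in which each neighbouring pair overlapped, and the 1-9 and 2-1 unigenes were last and stood apart from each other. In CK, PT3 came first, followed by Cluster-8255.75677, PT1 and Cluster-8255.75186, with no overlap between neighbours. The 1-9 unigene and Cluster-8255.67723 followed and overlapped, Cluster-8255.109087 lay below both, and the 3 unread members came last.

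Lengths of the unigenes could be recovered from counts and FPKM, and were not used to choose the members. The effective length had a median over libraries of 1993 nt for Cluster-8255.75677, 2308 nt for Cluster-8255.75186 and 3513 nt for Cluster-8255.46163, with the other tested members between 2085 and 2869 nt. For the 7 members with at least 10 reads in every library, the LP-minus-CK difference in recovered length ran from -14.8 to -0.28 nt, and the exact two-sided permutation tests gave p = 0.2 to 1.0 (adjusted over the 7 tests, 0.35 to 1.0), where 3 libraries against 3 cannot give less than 0.1. With at least 50 reads in place of 10, the difference was 1.28 nt in place of -14.8 nt for Cluster-8255.46163 and -1.17 nt in place of -7.05 nt for Cluster-8255.67723, and neither could then be tested with 3 libraries in each group. Over 2482 unigenes with at least 1000 reads in every library, the median difference was -3.23 nt, with 10th and 90th percentiles of -3.36 and -3.11 nt. A shift this even belongs to the libraries as a whole, so the tests say nothing about the members. The FPKM values are rounded, which makes the recovered length least exact for members of low FPKM.

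The remaining 8 unigenes of the Pi transporter section are described as carriers of organic phosphates or exchangers of these with Pi, and 5 were called higher and 2 lower in LP (6.09% and 7.10% of all unigenes tested). The highest level was that of Cluster-8255.64283, a putative glycerol-3-phosphate transporter, at 337 ± 39.7 FPKM in LP and 84.8 ± 2.32 FPKM in CK (SD, n = 3 each). It exceeded the most abundant PHT-type member in each group. By fitted change, the largest increases were in a xylulose 5-phosphate/phosphate translocator unigene (Cluster-8255.77282), with 479 reads in LP and 0 in CK, at least 127-fold higher, and a glucose-6-phosphate/phosphate translocator (Cluster-8255.30407, log2 fold change 2.41, SE 0.29). The decreases were in a triose phosphate/phosphate translocator (Cluster-8255.65078, -2.51, SE 0.19) and a sugar phosphate/phosphate translocator (Cluster-8255.26948, -1.95, SE 0.34).

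Signalling genes upstream of PHT1 were represented by SPX-domain and PHR1-like unigenes. The SPX unigenes were found in a table ordered by fold change, of which only the part with unigenes read in one group alone and with the larger increases was read, so most SPX unigenes with smaller increases or with decreases would not be in the list. The 9 listed SPX unigenes were all called higher in LP (6.09% of all unigenes tested), with none below a log2 fold change of 4.5, and nothing is read from this count. The most abundant, SPX domain-containing protein 3 (Cluster-8255.17821), had 226, 281 and 292 FPKM in LP and 0.09, 2.56 and 0.07 FPKM in CK, where replicate 2 was the highest, and a further SPX3-like unigene (Cluster-8255.114442) had 178 ± 25.0 FPKM in LP and 0.16 ± 0.28 FPKM in CK (SD, n = 3 each). Both listed PHR1-like unigenes were called lower in LP (7.10% of all unigenes tested), and nothing is read from this count either. Cluster-8255.79060 had 10.1 ± 2.02 FPKM in LP and 30.4 ± 1.75 FPKM in CK (SD, n = 3 each). Cluster-8255.53008 had a log2 fold change of -1.87 (SE 0.15).

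Unigenes of Pi release and of lipid exchange were also listed. Purple acid phosphatases release Pi from organic phosphates, although several of those listed are described as inactive or probable inactive. Part of their list comes from the partly read table of the SPX unigenes, so nothing is read from its count. Of the 31 listed, 28 were tested and 28 were called higher (6.09% of all unigenes tested). The most abundant, Cluster-8255.83560, had 142 ± 5.96 FPKM in LP and 30.5 ± 2.89 FPKM in CK (SD, n = 3 each). Cluster-8255.16873 and Cluster-8255.26338 had 399 and 231 reads in LP and 0 in CK, so were at least 106-fold and 61.1-fold higher, while Cluster-8255.17137, which was read in CK, was 366-fold higher by mean FPKM. Membrane lipid remodelling exchanges phospholipids for galactolipids and sulfolipids, and 16 unigenes were listed by description terms for it. Of these, 15 were tested and 15 were called higher (6.09% of all unigenes tested), with none below a log2 fold change of 4.41. That lowest value is of Cluster-9703.1, which is described as GDPDL2 with a protein kinase domain. Whether the GDPDL2 unigenes take part in this exchange was not tested. This list comes from the same partly read table, so nothing is read from its count either. Glycerophosphodiester phosphodiesterase GDE1-like (Cluster-8255.58978) had 753 ± 59.8 FPKM in LP and 10.4 ± 2.21 FPKM in CK (SD, n = 3 each), and the SQD2-like unigenes Cluster-8255.81109 and Cluster-8255.84412, sulfolipid synthases, had 9004 and 315 reads in LP and 0 in CK, so at least 2381-fold and 83.3-fold higher. A purple acid phosphatase 8-like unigene (Cluster-8255.92531) and a GDPDL2 unigene (Cluster-8255.98621) went the other way, with 0 reads in LP against 144 and 55 in CK, each with 0 in CK replicate 1, and were not tested. All these lists hold unigenes the study selected as differing between these libraries, so the counts are not independent of that selection.

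**Figure D4:**
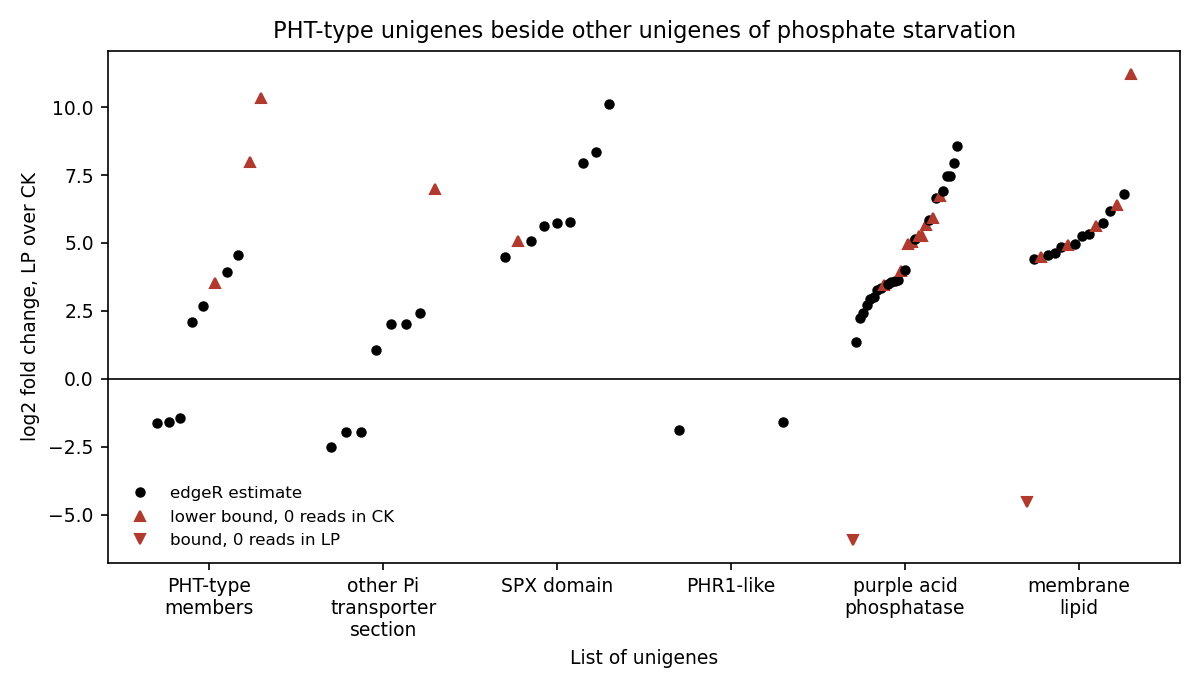
Log2 fold change, LP over CK (vertical axis), of the PHT-type unigenes and of the other lists (horizontal axis), each point a unigene, with black points for edgeR estimates and red triangles for bounds where a group had 0 reads, untested unigenes included. The PHT-type and other Pi transporter lists hold points on both sides of 0, both PHR1-like unigenes lie below 0 (-1.87 and -1.58), and the tested SPX, purple acid phosphatase and membrane lipid unigenes lie above. The SPX and membrane lipid lists and part of the purple acid phosphatase list come from a table read only to its larger increases. Points nearer to or below 0 can be missing from them.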

How the data were processed

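RNA-seq libraries from RY2 roots, 3 per group, were used, and groups were taken from the sample titles. According to the study's methods, the authors assembled the filtered paired reads into unigenes with Trinity (version 2) and quantified them with RSEM at default settings. The submitters' processing notes also name Bowtie2 2.2.3. The expected counts that the authors deposited are not normalized and need not be whole, and the FPKM values deposited beside them were scaled by the authors for unigene length and library size. Descriptions were read from the study's supplementary tables. No unigene sequence, genome position or strand setting of the counting was used, so antisense and overlapping unigenes are uncertain.

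Counts were rounded, filtered with edgeR's filterByExpr (minimum count 10), scaled by TMM and compared by the quasi-likelihood F test of edgeR 4.0.16 (with limma 3.58.1 in R 4.3.3), with Benjamini-Hochberg adjustment over 62040 unigenes. SE is the size of the log2 fold change divided by the square root of F. The procedure was tested on simulated data. Library totals were 20643446 to 21784888 in LP and 15586353 to 17821019 in CK, and the replicates differed by more than sampling noise (chi-square 6.02 to 20.7 per degree of freedom). The labels do not tie a library to a box of seedlings, so p-values measure the spread between these libraries only.

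The members and lists were chosen with earlier results of these data known. Named were all 10 members and, per list, the unigene of the highest mean FPKM and the 2 largest called changes in each direction. The untested unigenes without reads in LP were named after their values were seen. The purple acid phosphatase unigene Cluster-8255.17137 was also named outside this rule. SPX-domain, membrane lipid and leaf unigenes, the Brassica descriptions and part of the purple acid phosphatases come from a table of all differing unigenes. It is ordered by fold change, and only the part with unigenes read in one group alone and with the larger increases was used. The study's own fold changes and p-values were not used.

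The alternatives were DESeq2 1.42.0, 3 other scalings, 2 other filters, glmTreat with a log2 threshold of 1, a 0.01 threshold for the adjusted p, limma on log2(FPKM + 1) and log2(FPKM + 0.1), unrounded counts, thinning to equal depth, a replicate block, each library left out, the summing of unigenes with one description, TPM, TMM-scaled counts, omission of the most abundant member, and a minimum of 50 reads for recovered lengths.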

Additional observations from a re-analysis of the deposited data

How the results depend on the processing

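No call of a member changed direction under any alternative. For the lists only the number of calls was compared, so the direction of each list unigene was not checked. The difference in recovered length of Cluster-8255.46163, which no test called, changed sign, from -14.8 nt to 1.28 nt with at least 50 reads in place of 10. The number of members called was 8 to 10 with 1 library left out and 9 under DESeq2, each other scaling and either filter. It was 6 when tested against a log2 fold change of 1 (glmTreat), where Cluster-8255.67723, Cluster-8255.72767 and Cluster-8255.46163 lost their calls. It was 5 of 5 tested features when unigenes of one description were summed. The call of Cluster-8255.46163 was also lost at an adjusted p under 0.01 and in limma on log2(FPKM + 1). Of the other Pi transporter section, 4 of 7 calls were left both with glmTreat and at an adjusted p under 0.01, and 5 to 7 with 1 library left out. At an adjusted p under 0.01, 9 of 15 membrane lipid calls were left.

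The ratio of summed FPKM in LP over CK was 3.25 to 3.79 with 1 library left out, 3.31 in TPM, 3.63 in TMM-scaled counts, and 2.53 without the most abundant member, Cluster-8255.75677. Without that member, class shares in LP and CK were 84.2% and 7.62% for 1-4-like, 3.09% and 1.88% for 1-7-like, 9.65% and 68.0% for PT3, 2.75% and 20.6% for PT1, and 0.24% and 1.91% for 1-9, with 0.085% in LP for 2-1. Shares of TMM-scaled counts, which are not per length, were 25.9% for 1-7-like in CK, 0.21% in LP and 2.32% in CK for 1-9, and 0.076% in LP for 2-1.

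Deviations of LP and CK libraries with the same replicate number correlated at -0.0057, 0.040 and 0.049, and those with different numbers at -0.063 to 0.026. These correlations are weak and do not settle whether the replicate numbers pair the samples. With the replicate block, all 9 members were still called, as were 6 unigenes of the other Pi transporter section, 22 purple acid phosphatases, 7 SPX, 2 PHR1-like and 10 membrane lipid unigenes. The members and lists were chosen by this contrast, so nothing is read from the calls they kept. Over all 62040 unigenes tested, 5167 were called with the block in place of 8183. The number was 3053 when tested for a log2 fold change of 1 and 4214 at an adjusted p under 0.01. Depth limits the 1-9 and 2-1 unigenes, with at most 106 and 25 reads in a library. Reads shared between unigenes of one description limit the split within the 1-4-like and 1-7-like classes.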

Other observations

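Unigenes with a pattern over the 6 libraries most like that of a member were found by the Euclidean distance of centred log2 CPM (prior count 2) among 645 unigenes described in the transporter, phosphatase and transcription factor tables. Nearest to the 1-7-like unigene Cluster-8255.75677 were a bHLH transcription factor (Cluster-8255.48119, distance 0.38), a potassium transporter 7 unigene (Cluster-8255.18059, 0.41) and a TCP family transcription factor (Cluster-8255.15823, 0.44), where the median distance over the 645 was 4.87. The bHLH unigene had 17.5, 13.7 and 17.9 FPKM in the LP libraries and 2.44, 3.29 and 2.73 FPKM in the CK libraries. The potassium transporter unigene had at most 0.32 FPKM in LP and was listed at 0 in CK, so its likeness rests on few reads.

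Nearest to PT3, Cluster-8255.72767, were a homeobox-leucine zipper HAT5 unigene (Cluster-8255.79039, distance 0.22), a K+/H+ antiporter (Cluster-8255.55870, 0.23) and a zinc finger A20 and AN1 domain unigene (Cluster-8255.67017, 0.26), with a median distance of 3.11. The HAT5 unigene had 51.3, 54.6 and 73.3 FPKM in the LP libraries and 172, 174 and 185 FPKM in the CK libraries. In all 3, as in PT3, LP replicate 3 was the highest of the LP libraries and remained below every CK library. All these tables list unigenes that differ between LP and CK, so a like difference between the groups is shared by selection. The unigenes were chosen as nearest over these same libraries, so a like order of replicates is favoured by that choice and is no separate result.

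LP replicate 3 was the highest LP library for 7 of the 10 members and LP replicate 1 for 3. It was the lowest for the 2-1 unigene.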
